A study of Mus musculus with 8 samples.

Results

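The immediate early genes examined were Fos, Fosb, Jun, Junb, Egr1, Egr2, Ier2, Ier3, Atf3 and Dusp1, 10 of the 55536 mouse genes counted, chosen by name. All 10 were found in the count table through their Ensembl identifiers, and all 10 were among the 15998 genes that passed the filter on low counts. They were measured by RNA sequencing in 8 liver tumors. HCA-1 cells, a mouse hepatocellular carcinoma line, had been implanted into the liver of male C3H mice aged 6 to 8 weeks according to the labels. On day 17 the mice received a single intravenous dose of 4 mg/kg PFSUV-IMQ (the 4 IMQNP tumors) or saline (the 4 Control tumors), and tumors were taken 3 h later. PFSUV-IMQ is imiquimod (IMQ), an agonist of the RNA sensor TLR7, carried in phospholipid-free small unilamellar vesicles (PFSUV). All tumors stem from this 1 cell line, neither empty vesicles nor free IMQ are among the 8 tumors, and whole tumor tissue holds host cells beside HCA-1 cells. Since the tissue was measured in bulk, fewer cells of a type and less RNA per cell cannot be told apart.

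Immediate early genes are transcribed within minutes of a stimulus by factors already present in the cell, with no need for new protein, and many of their transcripts are short-lived. Fos, Fosb, Jun and Junb encode subunits of the dimeric transcription factor AP-1, and Atf3 encodes a related bZIP factor induced by stress. Egr1 and Egr2 encode zinc finger factors, Ier3 encodes a regulator of cell survival, and Dusp1 encodes a nuclear phosphatase that switches off MAP kinases. In the liver, immediate early genes are known for their early response to partial hepatectomy, injury and handling of the tissue.

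Depth was 16883911 to 27687756 counts per Control tumor and 17008151 to 18527613 per IMQNP tumor, so that 3 counts corresponded to 0.108 to 0.178 CPM (a tumor's counts scaled to a common library size). The 10 genes had from 284 counts (Fosb) to 11991 counts (Egr1) in a tumor, far above that limit, which covers counting error only. Counts of any pair of tumors within a group departed from sampling noise, with chi-square values of 29.04 to 291 per degree of freedom. The epithelial keratins Krt8 and Krt18 were at 444 to 941 and 550.4 to 1256 CPM in the 8 tumors, while Afp, a marker of hepatocellular tumors, was at 2.10 to 6.08 CPM and Gpc3, another such marker, at 0.629 to 1.99 CPM. Control_4 and IMQNP_2 stood apart in 7 hepatocyte markers such as Alb (albumin). Their sums were 33647 and 33935 CPM, against 4353 to 13785 CPM in the other 6 tumors. Both tumors also held the lowest values of most immediate early genes in their groups. The fit was also run without them. That choice was made with these values known, so calls of that fit are no independent support.

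The fitted level was higher in the IMQNP tumors for 10 of 10 immediate early genes, by 1.40-fold (Egr2) to 2.25-fold (Atf3), but none was called at an adjusted p under 0.05 with a log2 fold change beyond 1 (edgeR's quasi-likelihood test). Estimates above 0 were found for 46.0% of all tested genes. The median log2 fold change of the 10 genes was 0.93, and that of all 15998 tested genes was -0.03. Calls at the full threshold were made for 2.26% of tested genes in the higher direction (362 genes) and for 0.200% in the lower direction (32 genes). Ier3 was the 1 gene of the 10 with an adjusted p under 0.05, and its log2 fold change fell just short of the limit. That step was passed upward by 2.46% of all tested genes. An unadjusted p under 0.05 was reached by 6 of the 10 genes (Fosb, Junb, Egr1, Ier3, Atf3 and Dusp1), against 8.34% of all tested genes in the same direction. The DESeq2 Wald test called 2 of the 10 higher, Atf3 and Dusp1, against 2.85% of its tested genes.

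The groups were apart for 3 of the 10 genes: every IMQNP tumor was above every Control tumor for Ier3, Atf3 and Dusp1, which was so for 6.00% of all tested genes. In 5 of the other 7 (Fosb, Jun, Junb, Egr1 and Egr2), IMQNP_2 was the only IMQNP tumor that did not exceed every Control tumor, and Fos and Ier2 had further such tumors.

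**Figure D1:**
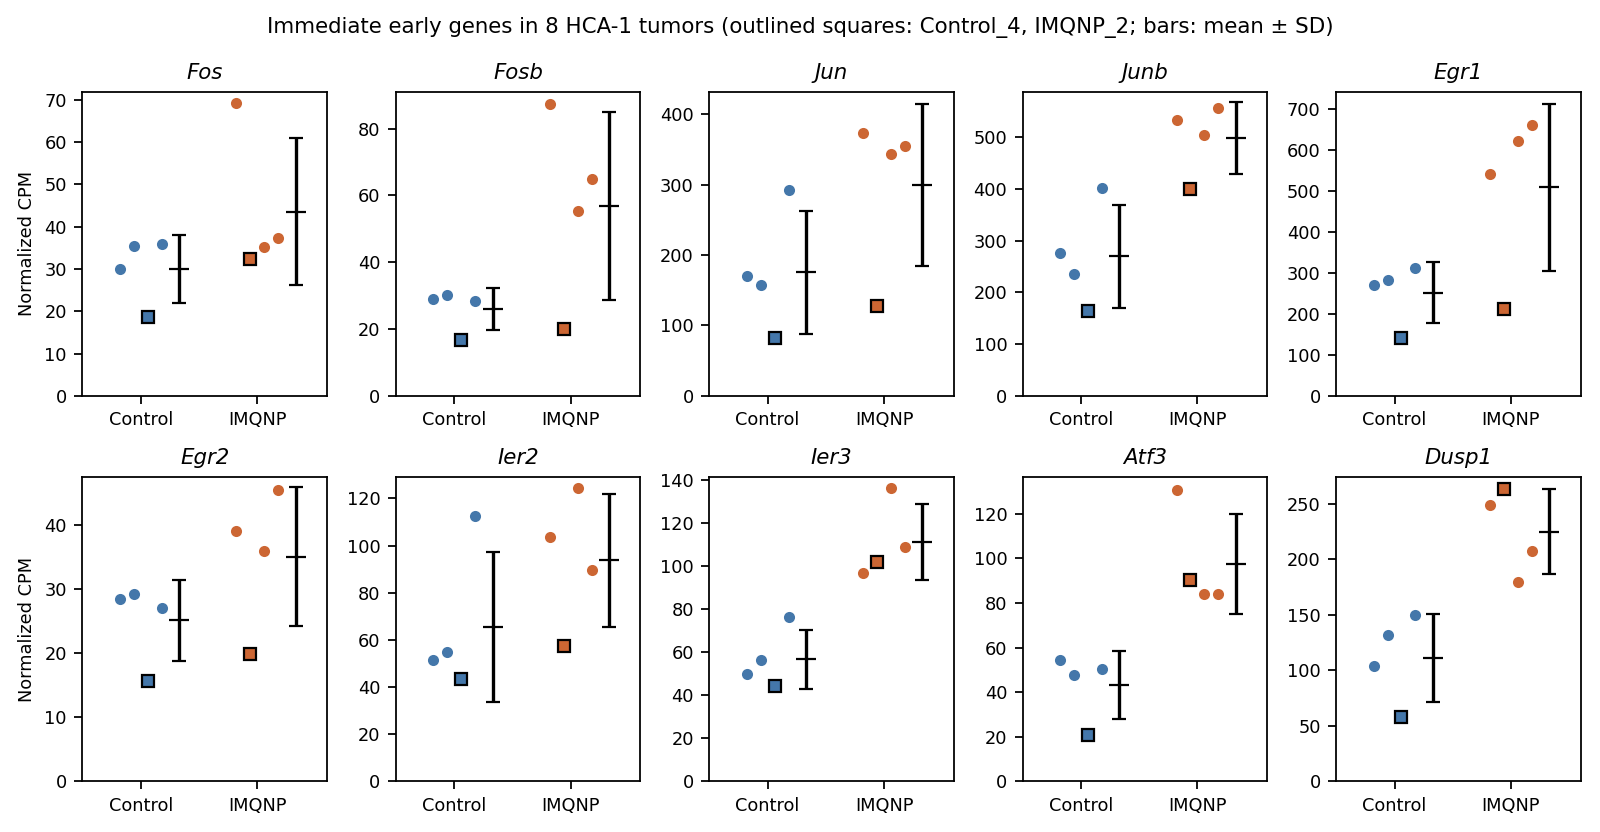
Normalized CPM (linear axis from 0) of each immediate early gene in the 4 Control and 4 IMQNP tumors, with the mean ± SD of each group beside the points and Control_4 and IMQNP_2, the tumors highest in hepatocyte markers, as outlined squares. Control_4 is the lowest Control tumor in all 10 panels, and only Ier3, Atf3 and Dusp1 have every IMQNP point above every Control point.

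In the plot of levels by tumor, the square for IMQNP_2 lies above the Control range in Ier3, Atf3 and Dusp1. In the other 7 genes it lies within that range, at its upper end in Junb.

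Promoter sequences were read for the 3 genes whose groups were apart and for 2 AP-1 genes, Fos and Junb, to show which response elements they hold. The RefSeq promoter table (GRCm38.p6) had entries for 8 of the 10 genes. The CRE half-site TGACG, bound by CREB and ATF factors, was present on either strand in the 200 bases before the RefSeq start in 6 of these 8 (Fos, Fosb, Junb, Egr2, Atf3 and Dusp1) and in 15.7% of all 32851 promoters of the table. Capitals mark the half-site in the first 4 sequences, and in the last they mark the kappaB site (the NF-kappaB element). In Atf3 the half-site is on the opposite strand. Its RefSeq start lies inside the gene as GENCODE annotates it, and the last 7 bases printed, half-site included, are exonic there. The last 29 bases printed for Ier3 are exonic in GENCODE too. For Dusp1, 153 of the 200 bases are shown, since the 47 nearest the start are GENCODE exon. In Dusp1 the half-sites are found at 3 positions, of which 2 overlap in the palindromic full CRE TGACGTCA.
Fos, chr12:85473690-85473889, plus strand: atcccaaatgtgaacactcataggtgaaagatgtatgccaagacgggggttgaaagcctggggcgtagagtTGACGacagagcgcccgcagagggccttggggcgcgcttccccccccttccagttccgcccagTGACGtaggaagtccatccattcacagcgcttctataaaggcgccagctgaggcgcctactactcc
Junb, chr8:84978749-84978948, minus strand: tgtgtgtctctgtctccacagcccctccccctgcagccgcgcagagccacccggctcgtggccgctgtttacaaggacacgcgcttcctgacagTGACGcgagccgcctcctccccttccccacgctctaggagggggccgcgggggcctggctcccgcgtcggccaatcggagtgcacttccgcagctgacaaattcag
Atf3, chr1:191183334-191183533, minus strand: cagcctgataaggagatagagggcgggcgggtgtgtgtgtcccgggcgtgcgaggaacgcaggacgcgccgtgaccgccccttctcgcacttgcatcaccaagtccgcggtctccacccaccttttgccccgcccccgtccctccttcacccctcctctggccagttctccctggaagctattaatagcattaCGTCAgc
Dusp1, chr17:26508520-26508672, minus strand: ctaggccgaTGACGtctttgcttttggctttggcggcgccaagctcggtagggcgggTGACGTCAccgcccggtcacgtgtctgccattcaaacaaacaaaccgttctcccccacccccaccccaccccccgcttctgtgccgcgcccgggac
Ier3, chr17:35821513-35821712, plus strand: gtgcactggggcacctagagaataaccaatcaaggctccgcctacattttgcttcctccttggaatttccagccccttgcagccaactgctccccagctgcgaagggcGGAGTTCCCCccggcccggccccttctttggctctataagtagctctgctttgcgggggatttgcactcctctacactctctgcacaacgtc

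The full CRE was found in 1.47% of all promoters and, of the 8, in Dusp1. The kappaB site was found in Fosb, Egr2 and Ier3 and in 6.07% of all promoters, and the CArG box, the element of serum response factor, in Egr2 and in 1.18%. The EGR site GCGNGGGCG was found in Fosb (4.28% of all promoters) and the TATA box TATAAA in Fos (9.96%). The AP-1 site TGANTCA (5.48% of all promoters) and TTTCNNTTTC, the core of the interferon-stimulated response element (2.27%), were found in no window of these 8 genes. No motif searched was common to Ier3, Atf3 and Dusp1, the genes whose groups were apart. The window of Jun, an AP-1 gene whose sequence is not shown, held none of the motifs searched. All motifs were searched on both strands. Egr2 had 5 overlapping or neighboring windows in the table against 1 for each of the other 7 genes, and a motif in any of them was counted: the half-site was in 3, the CArG box in 4 and the kappaB site in 1, whereas the shares of all promoters are per window. These are matches of letters in a fixed window and do not show binding.

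Fos, the founding Fos subunit of AP-1 (chromosome 12, 85473890 to 85477273), was at 30.0, 35.5, 18.6 and 35.8 CPM in Control_1, Control_3, Control_4 and Control_5, and at 69.4, 32.4, 35.2 and 37.4 CPM in IMQNP_1, IMQNP_2, IMQNP_3 and IMQNP_4. IMQNP_1 alone stood clearly above the Control range, and IMQNP_2 and IMQNP_3 lay within it. The means were 30.0 ± 8.02 and 43.6 ± 17.3 CPM (SD, n = 4 each). The log2 fold change of 0.54 (standard error 0.29, 95% interval -0.12 to 1.20) had an adjusted p of 0.515, so the interval held both no difference and a 2.30-fold increase.

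Fosb, a Fos subunit closely related to Fos (chromosome 7, 19302696 to 19310051), was at 28.8, 30.0, 16.6 and 28.2 CPM in the Control tumors, in the same order. In the IMQNP tumors it was at 87.4, 19.8, 55.4 and 64.9 CPM. IMQNP_1, IMQNP_3 and IMQNP_4 lay above the whole Control range, and IMQNP_2 was above Control_4 alone. Its log2 fold change was 1.13 (standard error 0.39, 95% interval 0.25 to 2.01, adjusted p = 0.233), with means of 25.9 ± 6.25 and 56.9 ± 28.1 CPM (SD, n = 4 each). Without Control_4 and IMQNP_2 the log2 fold change was 1.23 with an adjusted p of 0.0191, and Fosb was then called higher.

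Jun, the main partner of Fos proteins in AP-1 (chromosome 4, 95049034 to 95052222), had the Control values 169.6, 158, 81.7 and 292 CPM and the IMQNP values 373, 128, 343 and 355 CPM. The groups overlapped at both ends, with Control_5 high and IMQNP_2 low. The log2 fold change was 0.77 (standard error 0.42, adjusted p = 0.514). Of all tested genes, 86.9% had a smaller SD within groups than Jun. Exons of the antisense gene Junos overlap 7.28% of the exon bases of Jun, and counting by strand is not stated.

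Junb, an AP-1 subunit that can oppose Jun (chromosome 8, 84974484 to 84978718), was at 277, 236, 164 and 402 CPM in the Control tumors and at 534, 400.4, 505 and 556 CPM in the IMQNP tumors. Only Control_5 and IMQNP_2 crossed, by 1.90 CPM, and IMQNP_2 was far less separated from the other IMQNP tumors than for Jun. The log2 fold change was 0.89 (standard error 0.27, 95% interval 0.28 to 1.49) and the adjusted p was 0.157. Exons of Prdx2 on the opposite strand overlap 7.52% of its exon bases.

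Atf3, a stress-induced bZIP factor that can repress as a homodimer (chromosome 1, 191170296 to 191218039), was at 54.5, 47.7, 20.6 and 50.3 CPM in the Control tumors. After PFSUV-IMQ it was at 131, 90.4, 84.2 and 84.2 CPM. The groups did not overlap, and IMQNP_2 was the second highest of its group. This gene had the largest estimate of the 10, at 1.17 on the log2 scale (standard error 0.30, 95% interval 0.50 to 1.84, adjusted p = 0.0869), with means of 43.3 ± 15.4 and 97.4 ± 22.5 CPM (SD, n = 4 each). Without Control_4 and IMQNP_2 the log2 fold change was 0.95 with an adjusted p of 0.0752.

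Egr1, a growth factor-induced zinc finger factor (chromosome 18, 34859823 to 34864984), was at 271, 282, 142 and 312 CPM in the Control tumors and at 541, 212, 621 and 661 CPM in the IMQNP tumors. IMQNP_1, IMQNP_3 and IMQNP_4 lay above all Control tumors, and IMQNP_2 lay below 3 of them. The log2 fold change was 1.01 (standard error 0.37, 95% interval 0.18 to 1.84, adjusted p = 0.264). Leaving out Control_4 and IMQNP_2 gave 1.05 with an adjusted p of 0.0162, a call.

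Egr2, a factor of the same family (chromosome 10, 67535475 to 67542188), was at 28.4, 29.3, 15.7 and 27.1 CPM in the Control tumors and at 39.1, 19.9, 35.9 and 45.4 CPM in the IMQNP tumors. The order of the tumors was close to that of Egr1, at a lower level. Its estimate, 0.48 on the log2 scale (standard error 0.28, adjusted p = 0.555), was the smallest of the 10, and its 95% interval, -0.15 to 1.12, included 0.

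Ier2, a small nuclear protein (chromosome 8, 84661331 to 84662852), was at 51.5, 54.8, 43.2 and 112 CPM in the Control tumors and at 104, 57.4, 124 and 89.6 CPM in the IMQNP tumors. Control_5 was above 3 of the 4 IMQNP tumors. The log2 fold change was 0.52 (standard error 0.34, 95% interval -0.23 to 1.27, adjusted p = 0.609), the highest adjusted p of the 10.

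Ier3, a stress-inducible regulator of survival and of ERK signaling (chromosome 17, 35821684 to 35822923), was at 49.9, 56.1, 44.2 and 76.1 CPM in the Control tumors. The IMQNP tumors had 96.7, 102, 136 and 109 CPM, all above the highest Control tumor. Ier3 was 1.96-fold higher (95% interval 1.43 to 2.69), with means of 56.6 ± 13.9 and 111 ± 17.7 CPM (SD, n = 4 each). Its log2 fold change of 0.97 had a standard error of 0.20, the smallest of the 10, and an adjusted p of 0.0375. Only 31.6% of tested genes had a smaller SD within groups. The adjusted p depended on the tumors in the fit. It was between 0.0188 and 0.131 with each tumor left out in turn, under 0.05 in 1 of those 8 fits (without Control_5). It was 0.104 without Control_4 and IMQNP_2. With all 8 tumors it was 0.0387 with size factors of the DESeq2 type, computed in edgeR (RLE). On the same tumors it was 0.0309 with no filter on low counts and 0.00270 by the DESeq2 Wald test.

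Dusp1, the phosphatase of the nuclear MAP kinases (chromosome 17, 26505590 to 26562128), was at 104, 132, 58.4 and 150.0 CPM in the Control tumors and at 249, 264, 180.1 and 207 CPM in the IMQNP tumors. The groups did not overlap, and IMQNP_2 had the highest value of all 8 tumors, unlike in the other 9 genes. The log2 fold change was 1.02 (standard error 0.28, 95% interval 0.39 to 1.65, adjusted p = 0.114), with means of 111 ± 39.9 and 225 ± 38.4 CPM (SD, n = 4 each). Exon bases shared with Ergic1 amounted to 0.332%. Without Control_4 and IMQNP_2 the log2 fold change was 0.70 and the adjusted p 0.173.

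**Figure D2:**
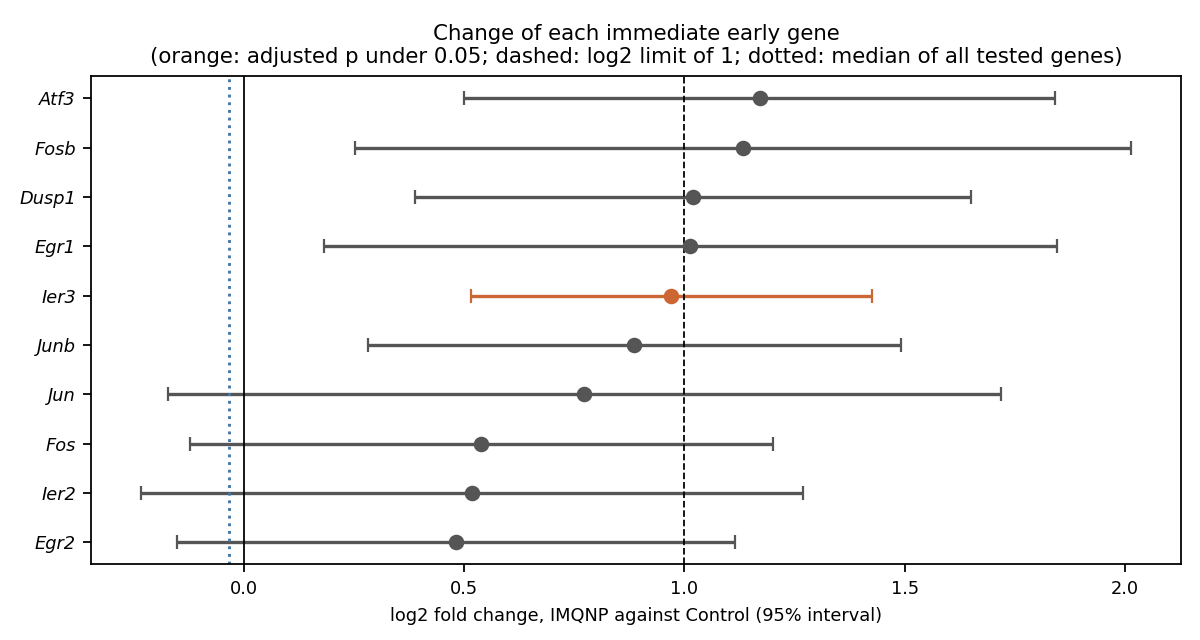
Log2 fold change of each immediate early gene (IMQNP against Control, edgeR) with its 95% interval, ordered by size, with lines at 0, at the limit of 1 and at the median of all tested genes. The intervals of Atf3, Fosb, Dusp1, Egr1, Ier3 and Junb lie above 0, and Ier3, in orange, is the 1 gene with an adjusted p under 0.05.

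The plot of fold changes shows that all 10 intervals overlap one another and that the interval of Ier3 is the narrowest. The 4 genes whose intervals include 0 are Jun, Fos, Ier2 and Egr2. A difference between the genes in the size of their change was not tested.

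Levels between genes were compared as CPM per kb of exon length. On this scale Junb was the most abundant of the 10 in both groups, with a mean level of 117 in the Control and 217 in the IMQNP tumors, and its range did not overlap that of Egr1, the next gene, in either group. In the Control tumors the mean levels per kb of the others were 56.2 for Egr1, 55.0 for Jun, 50.0 for Ier3, 43.0 for Ier2, 33.5 for Dusp1, 20.1 for Atf3, 12.8 for Fos, 7.39 for Egr2 and 4.15 for Fosb, and the ranges of neighbors in that order overlapped. The order in the IMQNP tumors after Junb was Egr1 at 113, Ier3 at 98.1, Jun at 93.9, Dusp1 at 68.0, Ier2 at 61.6, Atf3 at 45.2, Fos at 18.5, Egr2 at 10.3 and Fosb at 9.11 CPM per kb. Neighbors were apart there between Atf3 and Fos and between Fos and Egr2. Fos, Egr2 and Fosb were thus the least abundant in both groups.

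Tumors of a group deviated together across the genes. Control_4 was the lowest Control tumor for 10 of 10 genes, while it was lowest for 22.8% of all tested genes. Control_5 was the highest for 7 of 10 (33.4% of tested genes). IMQNP_2 was the lowest IMQNP tumor for 7 of 10 (35.6% of tested genes) and the highest for Dusp1. IMQNP_1, IMQNP_3 and IMQNP_4 were each above every Control tumor for 9 of the 10 genes, and IMQNP_2 for 3. The share of all tested genes above every Control tumor was not counted for single tumors, so these counts have no share to be read against. The 6.00% given above is for all IMQNP tumors at once, a stricter condition.

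The mean deviation of the 10 genes from their group means was -0.69 for Control_4 and 0.47 for Control_5 on the log2 scale, and -0.56 for IMQNP_2 and 0.32 for IMQNP_1. Control_1, Control_3, IMQNP_3 and IMQNP_4 lay between 0.09 and 0.14. The hepatocyte marker sums were 9662, 13785, 33647 and 4353 CPM in the Control tumors and 6147, 33935, 9068 and 8944 CPM in the IMQNP tumors. The tumor with the highest sum in each group was thus the one with the lowest mean deviation, and the tumor with the lowest sum the one with the highest. None of the 7 hepatocyte markers was at 0 in a tumor or called. With the mean log2 level of these markers as a covariate, an alternative chosen after seeing the data, 6 of the 10 genes were called higher (Fosb, Junb, Egr1, Ier3, Atf3 and Dusp1), against 3.53% of all tested genes. Without Control_4 and IMQNP_2, also chosen after seeing the data, 2 were called, Fosb and Egr1, against 1.74%. The log2 fold changes of the genes not given above were then 0.46 for Fos, 0.77 for Jun, 0.78 for Junb, 0.48 for Egr2 and 0.52 for Ier2, with adjusted p values from 0.158 (Junb) to 0.648 (Ier2). The part of hepatocyte RNA in the levels of these genes was not tested beyond these fits.

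**Figure D3:**
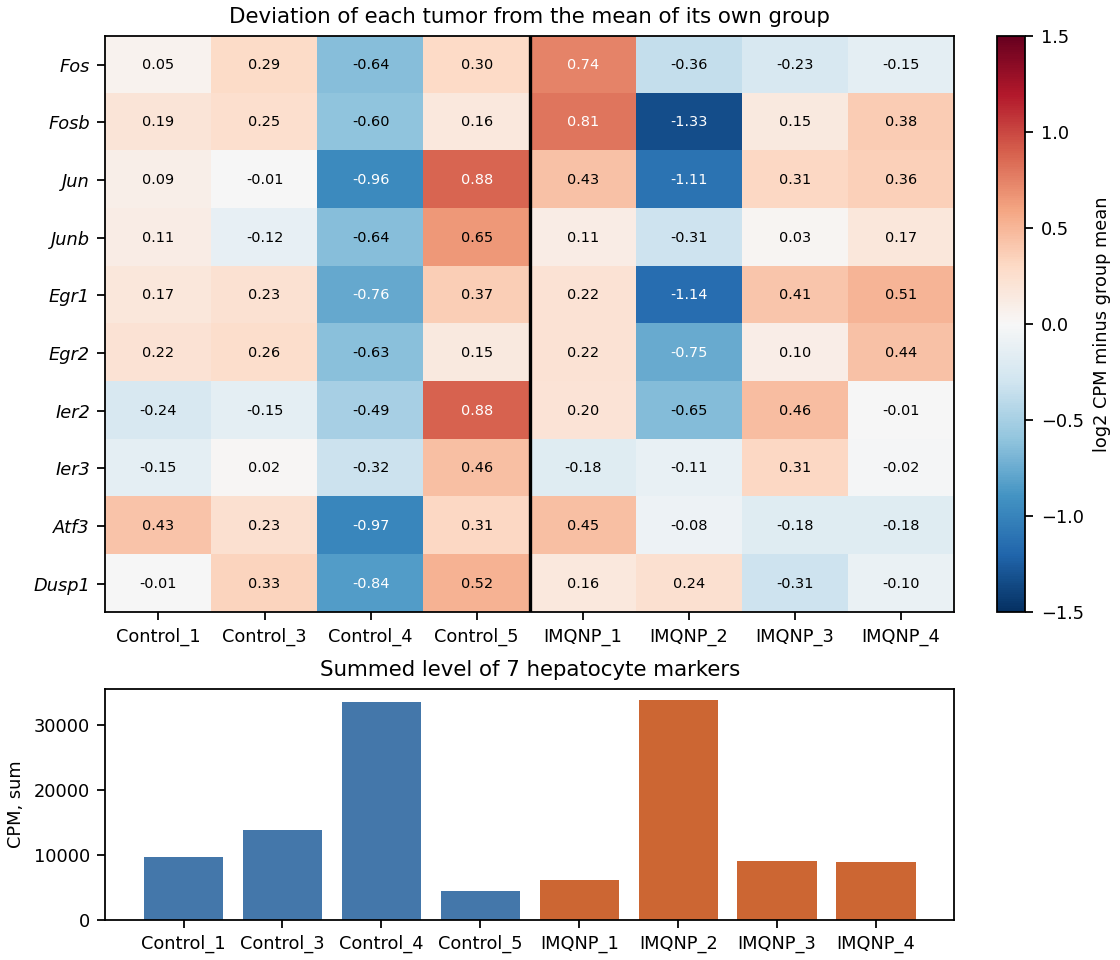
Deviation of each tumor from the mean of its own group (log2 CPM, color and number) for the 10 genes, above the summed CPM of 7 hepatocyte markers in the same tumors. Control_4 and IMQNP_2, with sums of 33647 and 33935 CPM, have mean deviations of -0.69 and -0.56.

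The map of deviations shows the exceptions in IMQNP_2. Dusp1 deviated by 0.24 there, Atf3 by -0.08 and Ier3 by -0.11, against -1.33 for Fosb, -1.14 for Egr1 and -1.11 for Jun.

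Deviations from the group means were positively correlated in 45 of 45 pairs of the 10 genes over the 8 tumors. Pearson's r ran from 0.20 (Fosb with Dusp1) to 0.97 (Egr1 with Egr2), with Jun and Egr1 at 0.93. Jun followed the mean of the other 9 genes most closely (r = 0.96), and Ier3 (0.57) and Dusp1 (0.53) least. These correlations describe 8 tumors that share libraries and differ in hepatocyte markers, and they carry no test. The 5 tested genes outside the list whose deviations were most like the mean of the 10 were Csn3 (r = 0.995), Mesd (0.991), Tfap2a (0.990), Rpl19 (0.989) and Rpl11 (0.989). They are the highest r of a search over all tested genes with 8 tumors, and such a search yields values near 1. Csn3 was at only 0.644 to 6.84 CPM and Tfap2a at 0.258 to 1.66 CPM. None of the 5 was called, and their log2 fold changes ran from -0.25 (Rpl19) to 0.25 (Tfap2a).

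Other genes of the same program were examined as lists of related factors. Of 12 other AP-1 and small Maf factors, 2 were called higher (2.26% of all tested genes) and none lower. Their median log2 fold change was 0.33. Batf2, a bZIP factor of myeloid and interferon responses, was at 13.4 to 17.9 CPM in the Control and 51.3 to 79.2 CPM in the IMQNP tumors, with a difference of 2.05 on the log2 scale (standard error 0.19, adjusted p = 0.000799). Mafk, a small Maf partner of CNC and Bach factors, was at 28.3 to 38.4 and 73.7 to 104 CPM, with a log2 difference of 1.42 (standard error 0.17, adjusted p = 0.00243). In both the groups were far apart and IMQNP_2 was the highest tumor, in contrast to Fosb and Jun.

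Of the other EGR factors and NAB corepressors, 3 of 4 were tested and none was called, with a median log2 fold change of 0.68. Egr3 had 0.71 (adjusted p = 0.380) and Nab2, a corepressor that EGR factors induce, 0.68 (adjusted p = 0.102). Egr4 had no counts in any of the 8 tumors. Among 12 other early response factors, edgeR called 1 higher, Csrnp1, a cysteine- and serine-rich nuclear protein, at 1.79 on the log2 scale (standard error 0.21, adjusted p = 0.00243). It was at 14.0 to 21.6 CPM in the Control and 52.8 to 85.1 CPM in the IMQNP tumors. DESeq2 also called Nr4a3, an orphan nuclear receptor, and Klf2, a zinc finger factor (adjusted p = 0.0135 and 0.0220). That made 3 in all, against 2.85% of its tested genes. Every IMQNP tumor was above every Control tumor for 5 of these 12 genes (6.00% of all tested genes), and the median was 0.57.

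Early regulators of growth arrest, mRNA decay and stress had the most edgeR calls of these lists of related factors and were the longest of them. By DESeq2, 3 were called higher, as many as among the 12 other early response factors (2.85% of its tested genes). Of 17, edgeR called 3 higher (2.26% of all tested genes) and none lower. The median log2 fold change was 0.72, and the groups were apart for 7 (6.00% of all tested genes). Ccn2, a matricellular growth factor, was at 31.1 to 42.1 and 96.6 to 234 CPM (log2 fold change 1.95, standard error 0.30, adjusted p = 0.00940). Zfp36, which binds AU-rich elements and speeds the decay of cytokine and immediate early transcripts, was at 56.5 to 84.4 and 128 to 266 CPM (1.26, standard error 0.25, adjusted p = 0.0277). Plk3, a stress-responsive kinase, was at 29.7 to 42.7 and 62.1 to 97.9 CPM (1.10, standard error 0.19, adjusted p = 0.0175). For all 3, IMQNP_2 had the highest value of the 8 tumors.

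The regulators of MAP kinase signaling gave no calls by edgeR and 2 by the DESeq2 Wald test. Of all tested genes, edgeR called 2.26% higher and 0.200% lower. At such shares, the absence of calls in short lists says little about their genes. Of 11 other dual specificity phosphatases edgeR called none, with a median log2 fold change of 0.34. Dusp5, a nuclear ERK phosphatase, had 1.26 (adjusted p = 0.0936). It was called higher by DESeq2 (adjusted p = 0.0134, against 2.85% of its tested genes called higher). Dusp2 had 0.81 (adjusted p = 0.430) with IMQNP_2 at 13.3 CPM and the other 7 tumors at 3.57 to 4.86 CPM. None of 6 ERK feedback inhibitors was called by edgeR (median 0.12). Spry1 had -1.12 (adjusted p = 0.147) and was called lower by DESeq2 (adjusted p = 0.0429, against 0.596% of its tested genes called lower). Errfi1, an inhibitor of the EGF receptor, had 0.94 (adjusted p = 0.225). Of 13 MAP kinases and nuclear activators none was called by either tool, and the median was -0.12. Map2k1, which encodes MEK1, had 0.69 (adjusted p = 0.145) and Mrtfb, a coactivator of serum response factor, -0.49 (adjusted p = 0.352). Over these 3 lists the estimates spread to both sides of 0.

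**Figure D4:**
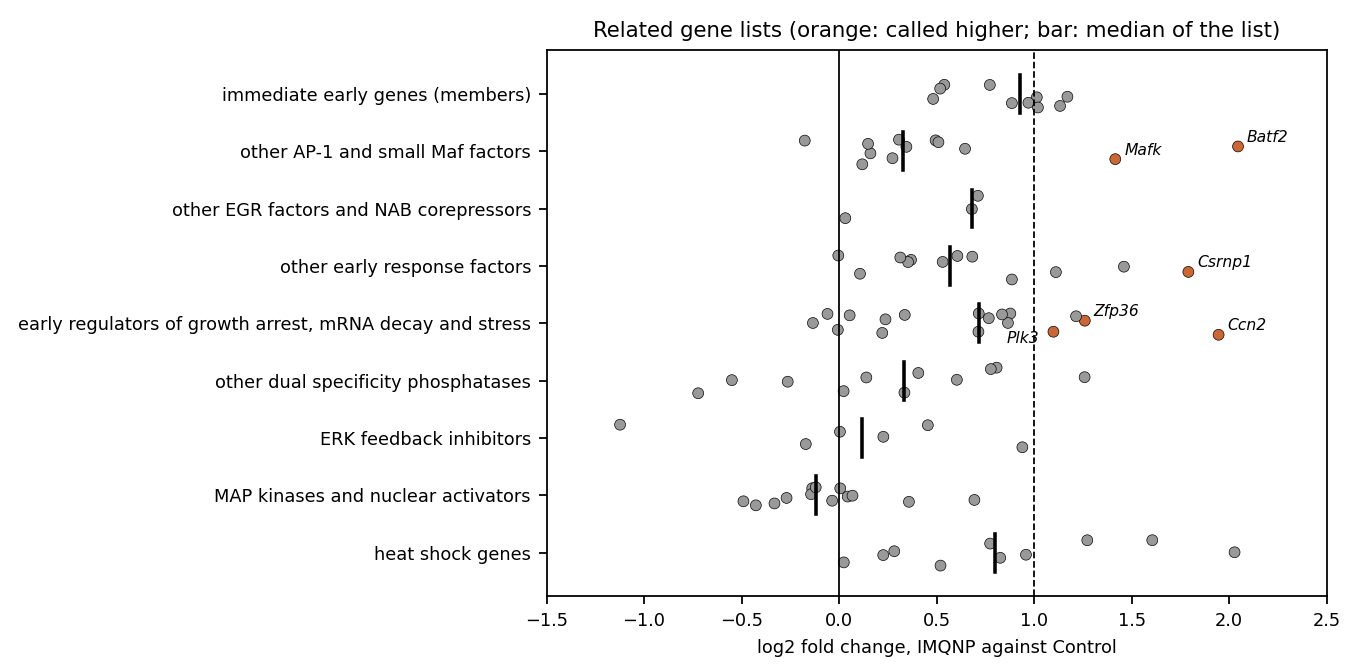
Log2 fold change (IMQNP against Control) of each tested gene in the immediate early genes and the related lists, with called genes in orange and a bar at the median of each list. The called genes are Batf2, Mafk, Csrnp1, Ccn2, Zfp36 and Plk3, and the medians run from -0.12 for MAP kinases and nuclear activators to 0.93 for the immediate early genes.

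The plot of the lists shows all 10 immediate early genes between 0.48 and 1.17, a narrower range than in any list with called genes. Interferon-stimulated reference genes, left out of the plot for their size, were called higher in 8 of 8 (2.26% of all tested genes). Their median log2 fold change was 5.21. The paper names Isg15, Ifit1, Ifit3, Rsad2 and Mx1 as upregulated in these same tumors, so their calls are a reference and no independent result. Rsad2, an antiviral enzyme, had 7.28, Mx1 6.26 and Ifit1 6.05. Their summed level was 163 to 293 CPM in the Control and 5492 to 16789 CPM in the IMQNP tumors, highest in IMQNP_2, the tumor with the lowest Fosb, Jun and Egr1 of its group.

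Heat shock genes, which also respond to handling of tissue, had estimates above 0 in 10 of 10 (46.0% of all tested genes). Their median log2 fold change was 0.80. None was called by edgeR and 2 by DESeq2 (2.85% of its tested genes). Hspa1a had 2.03 (adjusted p = 0.0743) and Hspa1b 1.61 (adjusted p = 0.209), and these near-identical copies can share reads. The summed level of the list was 2418 to 4046 CPM in the Control and 3192 to 5056 CPM in the IMQNP tumors, lowest in Control_4 and IMQNP_2 and highest in Control_5 and IMQNP_1 of their groups, as was the mean deviation of the immediate early genes. Their part in the levels of the immediate early genes was not tested.

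Markers of other cell types gave no calls by edgeR. DESeq2 called Ly6c2 higher in the macrophage list and Myh11 in the fibroblast list, against 2.85% of its tested genes. Ly6c2 was at 3.36 to 7.65 CPM in the Control and 9.43 to 34.8 CPM in the IMQNP tumors. The other 5 macrophage and monocyte markers had estimates below 0. Summed neutrophil markers were 17.8 to 62.0 CPM in the Control and 36.5 to 149 CPM in the IMQNP tumors (0 of 6 called, highest in IMQNP_2), and macrophage and monocyte markers 1427 to 2129 and 951 to 1987 CPM (0 of 6). Endothelial markers were at up to 150.4 CPM in the Control and at 92.3 to 137 CPM in the IMQNP tumors (0 of 6), fibroblast and smooth muscle markers at 1627 to 2471 and 2179 to 6229 CPM (0 of 6, highest in IMQNP_1), and T, B and NK cell markers at 22.0 to 37.3 and 17.0 to 48.3 CPM (0 of 5 tested). Erythroid markers were at 108 to 296 and 47.7 to 115 CPM (0 of 3 tested). All 3 had estimates below 0 (median log2 fold change -1.24) with an unadjusted p under 0.05 by edgeR. For Hbb-bs and Hbb-bt every IMQNP tumor was below every Control tumor. Shares of all tested genes in that direction were not counted. Hepatocellular tumor markers were at 1274 to 2135 and 1008 to 2058 CPM (0 of 6). That sum was mainly Krt8 and Krt18, while Afp, Gpc3, H19 and Epcam were at up to 11.4 CPM (Epcam). The part of these cell types in the values of the immediate early genes was not tested.

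Over 15 alternative fits the log2 fold change of every immediate early gene stayed above 0 in all 150 values, from 0.22 to 1.48, and 27 of the values were calls. Fos and Egr2 were called in none. The remaining 8 genes were called in 2 to 5 fits each, most often Fosb. The fits share tumors, so these values are not independent. Most calls came from fits that dropped IMQNP_2 or used the hepatocyte covariate, as did every call of Fosb. There were 7 with a replicate block, 6 among tumors with a shared number only and 6 with the covariate.

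**Figure D5:**
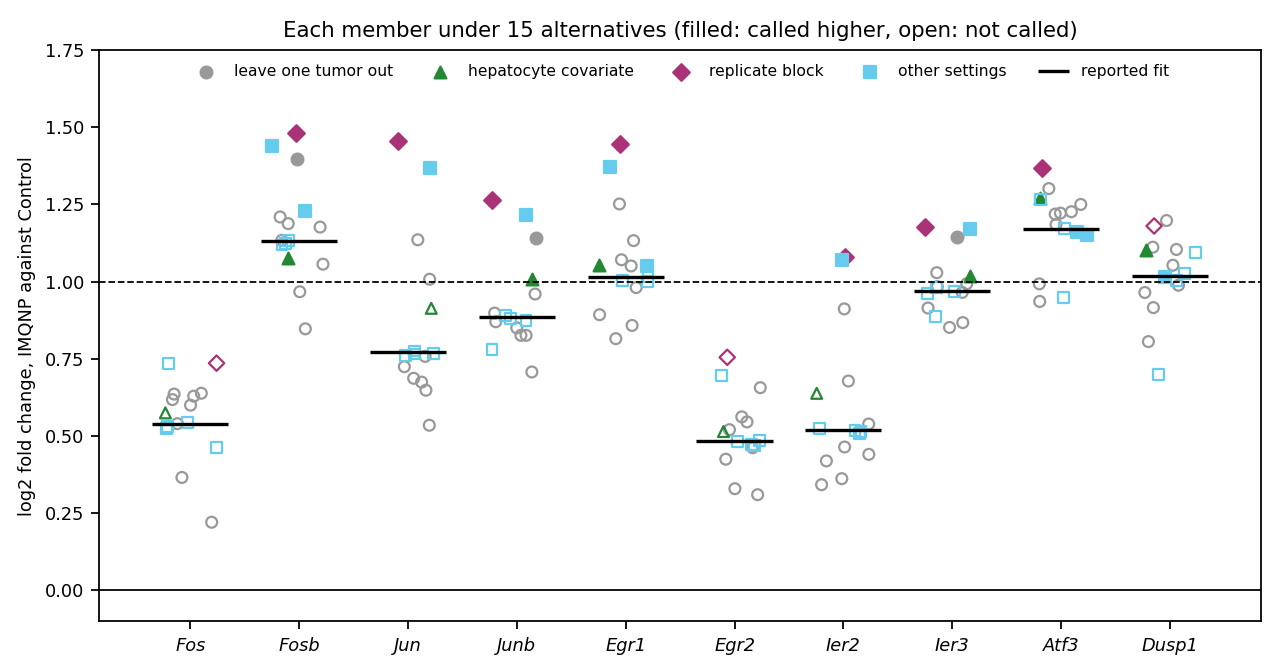
Log2 fold change of each immediate early gene in the reported fit (black line) and in 15 alternatives, with filled symbols where the gene was called higher and open ones where it was not. All 150 values lie between 0.22 and 1.48, and 27 are filled.

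The lowest point in the plot of the alternatives is 0.22, for Fos without IMQNP_1.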

How the data were processed

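For each of 8 tumors the authors deposited raw counts per gene as whole numbers. A further deposited table holds signal values, counts that the authors had scaled by DESeq2's size factor of the tumor. The counts were the input of every test, and the normalized table gave the gene symbols. The methods name TopHat and HTSeq, whereas the submitters' processing notes list Trimmomatic 0.38, HISAT2 2.1.0 and featureCounts 2.0.0. Which made the counts, and whether they used strand, was not settled. All identifiers are in GENCODE M21 (GRCm38), the source of coordinates and exon lengths.

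Groups were compared in R 4.3.3 with edgeR 4.0.16 (TMM normalization, filterByExpr, quasi-likelihood test, Benjamini-Hochberg adjustment over 15998 genes). A call needed both an adjusted p under 0.05 and an estimate beyond 1 in size on the log2 scale. Standard errors were the log2 fold change divided by the root of the F statistic. CPM used the TMM factors, deviations used log2 CPM (prior count 2), and levels per kb used the union of exons. The labels do not say that tumors came from separate mice, and the methods say that mice were dosed and their tumors taken. The p-values measure the spread between these tumors, which went beyond sampling noise. How much of that spread lies between mice was not tested. No batch or date is given.

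Alternatives were the Wald test of DESeq2 1.42.0, no filter on low counts, no fold limit, a replicate block and each tumor left out. A further one used size factors of the DESeq2 type, computed in edgeR (RLE). A hepatocyte covariate, leaving out Control_4 and IMQNP_2, and tumors with a shared number only were chosen after seeing the data. The edgeR and DESeq2 scripts were tested on simulated data. Python 3.11.15, pandas 2.3.3 and numpy 2.4.6 served for tables and figures.

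The members and lists were chosen with earlier results of these data known. All 10 immediate early genes were named, with up to 3 called genes of each other list by size of change, otherwise its 2 tested genes with the largest change, and the 5 genes most alike in their deviations. Protein sequences were not used here.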

Additional observations from a re-analysis of the deposited data

Results flagged for a closer look

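Among the 20 groups of 4 tumors formed by the 10 immediate early genes, 6 held a tumor set apart from the others by Dixon's criterion. IMQNP_1 was high for Fos at 69.4 CPM and for Atf3 at 131 CPM. Control_4 was low for Fosb at 16.6 CPM and for Egr2 at 15.7 CPM, IMQNP_2 was low for Jun at 128 CPM, and Control_5 was high for Ier2 at 112 CPM. Chance sets a tumor apart in about 1 in 20 groups, and the genes share the same tumors, so these are not independent.

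Of 48 groups of the other named genes, 6 held such a tumor. In IMQNP_2, Ccn2 was high at 234 CPM, Dusp2 at 13.3 CPM, Errfi1 at 718 CPM and Mx1 at 946 CPM. Hspa1a was high in IMQNP_1 at 32.0 CPM, and Rsad2 was low in Control_4 at 10.1 CPM.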

How the results depend on the processing

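No immediate early gene was called lower in any of the 15 alternative fits or with no limit on the fold change. The number called higher was 0 in the reported fit. It was 1 with no filter on low counts (Atf3, against 1.41% of tested genes). With no limit on the fold change it was 1 (Ier3, against 2.46%). The DESeq2 Wald test gave 2 (Atf3 and Dusp1, against 2.85%). The hepatocyte covariate gave 6 (against 3.53%), and leaving out Control_4 and IMQNP_2 gave 2 (against 1.74%). Tumors with a shared number only gave 6 (Fosb, Jun, Junb, Egr1, Ier2 and Ier3, against 2.61%). With each tumor left out in turn it was 0 to 2 (Junb and Ier3 without Control_5, Fosb without IMQNP_2). The fit with size factors of the DESeq2 type, computed in edgeR, called none. The median log2 fold change of the 10 genes, 0.93, was 0.76 to 1.14 with a tumor left out and 0.77 to 1.22 over the other alternatives.

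Of all tested genes, 362 were called higher and 32 lower. DESeq2 called 617 and 129, the hepatocyte covariate 565 and 200, and no filter 63 lower. Tumors with a shared number gave 205 lower. Leaving out a tumor gave 197 to 375 higher (fewest without Control_1) and 8 to 38 lower (fewest without IMQNP_4). Causes of these shifts were not tested.

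The groups share the replicate numbers 1, 3 and 4. Deviations of same-numbered tumors correlated at 0.29, -0.27 and -0.32. So few values, from tumors that differ in hepatocyte markers, cannot tell whether the numbers pair the tumors. With a replicate block, which drops Control_5 and IMQNP_2 for want of a partner, 7 of the 10 genes were called higher (Fosb, Jun, Junb, Egr1, Ier2, Ier3 and Atf3, against 2.60% of tested genes), and 267 genes were called lower. The same tumors without the block gave the 6 calls above. Each of the 10 genes had at least 284 counts in every tumor.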
